A study of Mus musculus with 2 samples.

Results

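A small population of B cells remained in mouse bone marrow cultures that had been driven toward myeloid-derived suppressor cells (MDSC), and its RNA was compared between a culture treated with dabrafenib (DAB) and one given the vehicle, DMSO. The members were cell barcodes with at least 1000 unique molecular identifiers (UMIs, each counting 1 captured RNA molecule), at most 10% of UMIs from mitochondrial genes, at least 3 UMIs summed over Cd79a, Cd79b and Ms4a1, at least 1 UMI of Cd79a, and no UMI of the myeloid integrin gene Itgam. This rule chose 279 of the 21035 barcodes past the filters on UMIs and mitochondrial share, namely 115 of 9621 in the DMSO library and 164 of 11414 in the DAB library.

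The marrow came from female C57BL/6 mice that were 10 weeks old. Both groups were cultured for 4 days in 50 ng/mL GM-CSF plus 50 ng/mL IL-6, and the DAB group also received 1.5 µmol/L dabrafenib, an inhibitor of the kinase BRAF. Each group was 1 library of the 10x Genomics 5′ v2 chemistry, which reads transcripts from their 5′ end, and how many mice each library pooled was not given in the sources used here. With 1 library per group no test of the treatment was possible, and dabrafenib cannot be told apart from any other difference between the cultures or libraries. All intervals below are exact 95% intervals that cover counting error only.

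B cells carry a membrane immunoglobulin that is held in a complex with CD79A and CD79B, whose tails pass the antigen signal to kinases and, through them, to early response genes such as Nr4a1 and Egr1. They also load peptides on MHC class II molecules with the help of the invariant chain CD74 and of the chaperones H2-DM and H2-O, under the control of the coactivator CIITA. B cells that turn into plasma cells lose MHC class II and fill the endoplasmic reticulum with secreted antibody. The cultures were made for myeloid cells, and no label of the series names B cells.

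B cells made up 1.20% of the DMSO cells (exact binomial interval 0.988% to 1.43%) and 1.44% of the DAB cells (1.23% to 1.67%), and these intervals overlap. The overlap depends on the marker threshold: 35 DMSO and 13 DAB members had a sum of 3 to 5. With a sum of at least 6 the DMSO share was 0.832%, under both intervals. The DMSO members held 607930 UMIs in all, and a cell had a median of 4208 UMIs from 1304 genes, and the DAB members held 975809 UMIs, with medians of 5372.5 UMIs and 1735 genes. B cells were thus shallower than the other cells, whose medians were 8412.5 UMIs for DMSO and 10761.5 for DAB. The 2 libraries shared 152 barcode sequences, of which 1 belonged to a DAB B cell and none to a DMSO B cell.

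The genes that chose the members are given here as a description only. The sum of Cd79a, Cd79b and Ms4a1 ranged from 3 to 46 UMIs per DMSO cell, with a median of 8, and from 4 to 52 per DAB cell, with a median of 18. Near the threshold, 9 DMSO cells and no DAB cell had a sum of 3, and 13 DMSO cells and 2 DAB cells had a sum of 4. Just outside it, 8 DMSO cells and 1 DAB cell met the other conditions with a sum of 2. A further 18 DMSO and 36 DAB barcodes were left out only because of an Itgam UMI, and these had median totals of 14753 and 15198.5 UMIs. Ms4a1, which encodes CD20, was at 0 in 75 DMSO and 82 DAB members, so that these cells were chosen by the Cd79 genes alone.

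The label was checked on genes outside the rule. Of 8 B cell genes, namely the lineage factors Pax5, Ebf1, Pou2af1 and Bach2, the kinase Blk, the lectin Cd22, the IgM receptor Fcmr and the surface gene Ly6d, at least 3 were found in 102 of 115 DMSO cells and 154 of 164 DAB cells, and 3 DMSO cells had none. Beside Cd79a and Cd79b, which chose the cells, the genes that stood highest over all other cells in both libraries were Igkv3-4, Ighm, Ighv1-55, Igkc, Mzb1, Iglc2, Iglc3, Jchain, Ebf1, Gm30211, Fcmr, Iglv1 and Ly6d. Of these, Igkv3-4 and Ighv1-55 had nearly all their UMIs in 1 cell of each library, and Jchain had all of its UMIs in 5 DMSO and 2 DAB cells. No UMI of Rag1, Rag2, Dntt, Vpreb1, Vpreb2 or Igll1, which mark B cell precursors, was found in any member. At least 1 of 6 mature B cell genes was found in 85 DMSO cells (73.9%) and 150 DAB cells (91.5%). These shares were not taken at equal depth, and the DAB members had the larger median of UMIs.

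Neutrophil and monocyte genes were low in the members, while a few genes of lymphoid and dendritic lists were not. The 17 neutrophil markers summed to 493 counts per 1000000 UMIs (CPM) in DMSO B cells and 597 in DAB B cells, against 47259 and 40344 in the other cells, and S100a8 was the most abundant, at 211 and 246 CPM in the B cells. The 17 monocyte and macrophage markers summed to 528 and 748 CPM, against 11790 and 9776 in the other cells, with Ctss, which B cells also express, the most abundant. The T cell markers summed to 114 and 167 CPM, against 71.3 and 83.8 in the other cells, most of it Lck. Of the CD3 genes, Cd3e was at 0, Cd3d had 1 and 2 UMIs and Cd3g had 2 and 3 UMIs in the DMSO and DAB members. The dendritic cell markers summed to 363 and 285 CPM, against 318 and 154, led by Ccr7, which B cells also express. No marker of NK cells or basophils had enough UMIs to compare. Markers of plasmacytoid dendritic cells summed to 1165 and 1325 CPM, led by Irf8, which B cells also express, against 336 and 357 in the other cells. Free RNA in the droplets can place such UMIs in any cell, but it was not measured, and its part here was not tested. Cd79a itself was found in 0.736% of the other DMSO cells and 0.951% of the other DAB cells. These include the 18 DMSO and 36 DAB barcodes left out only because of an Itgam UMI, and cells with a marker sum under 3.

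**Figure D1:**
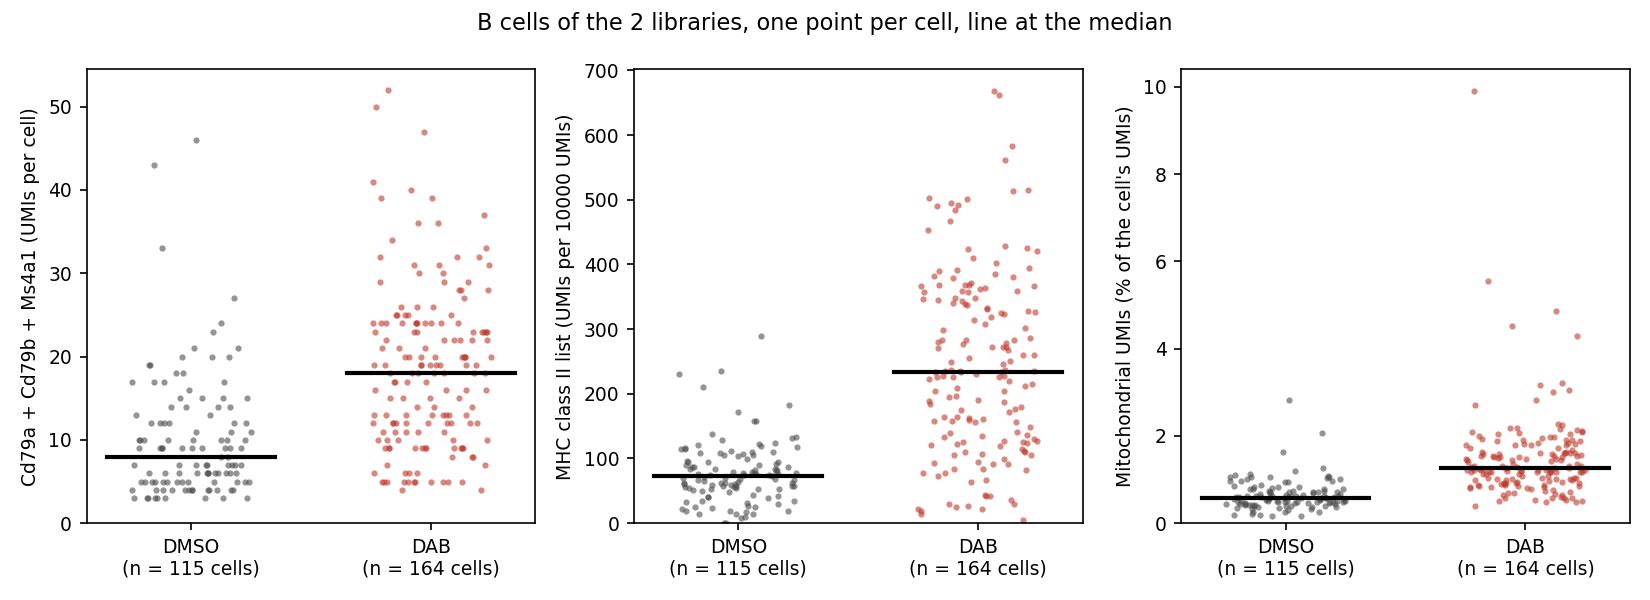
Each point is 1 B cell of the DMSO (n = 115) or DAB (n = 164) library, and the line is the median. The panels show the summed UMIs of Cd79a, Cd79b and Ms4a1 per cell (used to choose the cells), the MHC class II list in UMIs per 10000, with medians of 72.3 and 234, and mitochondrial UMIs as a percent of the cell's total, with medians of 0.586% and 1.26%.

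Gene levels were compared as UMIs summed over the members of a library per 1000000 UMIs of those members, and the difference as a log2 ratio of DAB over DMSO. A gene counted as higher or lower when its log2 ratio was at least 0.5 in size and its counting interval lay on 1 side of 0. Of 6746 genes with at least 20 UMIs in the members, 964 (14.3%) were higher and 579 (8.58%) lower with DAB, and the median log2 ratio was 0.13. Scaling by the median of ratios in place of total UMIs moved that median to 0.00343 and gave 709 genes higher and 788 lower, so the balance of the directions depends on the scaling. Each count of list genes given here is to be read against the shares of 14.3% higher and 8.58% lower, and a count near them is no result about its list. The same 6746 genes had a median log2 ratio of 0.01 in the other cells.

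MHC class II genes were higher as a group in DAB. All 10 genes of the list were higher in DAB B cells, beside 14.3% of all genes, with a median log2 ratio of 1.38. H2-Aa, an alpha chain of the peptide-binding molecule (Ensembl gene ENSMUSG00000036594, chr17:34282744-34287823, minus strand, GRCm38), was at 1151 CPM in DMSO (exact Poisson interval 1068 to 1240) and 3516 CPM in DAB (3399 to 3636), a log2 ratio of 1.61 (1.49 to 1.73). Its partner H2-Ab1 was at 855 and 2111 CPM (log2 ratio 1.30, 1.16 to 1.44), and the beta chain gene H2-Eb1 was at 1248.5 and 2409 CPM (0.95, 0.83 to 1.07). Cd74, which encodes the invariant chain, was at 3722 and 10585 CPM (1.51, 1.44 to 1.57).

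The regulators and chaperones of the pathway were higher too. Ciita, the coactivator of these genes, had 21 UMIs in 16 DMSO cells and 112 UMIs in 68 DAB cells, a log2 ratio of 1.73 (1.05 to 2.48). The peptide exchange factor genes H2-DMa, H2-DMb1 and H2-DMb2 had log2 ratios of 1.21, 1.46 and 1.91, and the genes of their inhibitor, H2-Oa and H2-Ob, had 1.26 and 0.90. After each cell was thinned to 1000 UMIs, H2-Aa UMIs remained in 61.7% of cells in DMSO and 90.2% in DAB, Ciita in 1.74% and 15.9%, and H2-DMb2 in 9.57% and 37.2%. All 3 genes were thus found in a larger share of DAB cells at equal depth.

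The difference lay in most cells rather than in a few. The 10 genes summed to a median of 72.3 UMIs per 10000 in DMSO cells (quartiles 51.3 to 101) and 234 in DAB cells (129 to 347), and 148 of 164 DAB cells (90.2%) lay above the DMSO median. The groups still overlapped, since DAB cells ranged from 5.40 to 668 and DMSO cells from 0 to 289. In the other cells of the cultures the same 10 genes had a median log2 ratio of -0.19, and in 1009 DMSO and 946 DAB myeloid cells with high MHC class II it was 0.07. Those myeloid cells were chosen by at least 10 UMIs of H2-Aa, H2-Ab1 and H2-Eb1, at least 1 UMI of Itgam and none of Cd79a, so that their class II levels were partly set by the choice. In the other cells 4 of the 10 genes had a ratio above 0. Past the criterion there, H2-DMb2 was higher (0.53), and H2-DMb1 (-0.55) and H2-Oa (-0.68) were lower. The difference between B cells and other cells was not tested.

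**Figure D2:**
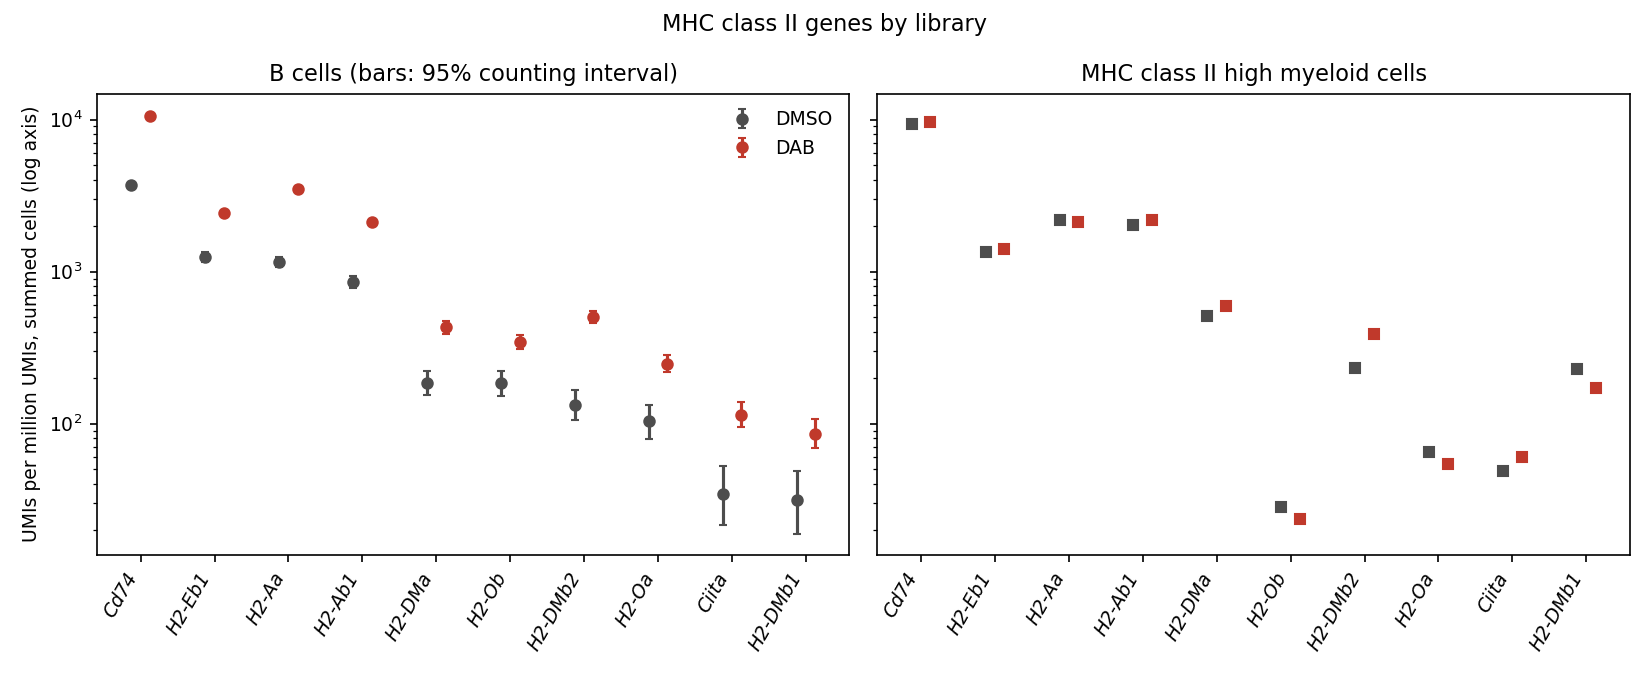
Levels of the 10 MHC class II genes in CPM (log axis), summed over B cells (left, bars are 95% counting intervals) and over myeloid cells with high MHC class II (right), in DMSO and DAB. In B cells all 10 DAB points lie above the DMSO points, from a log2 ratio of 0.90 for H2-Ob to 1.91 for H2-DMb2, and in the myeloid cells the median log2 ratio was 0.07.

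Because these genes differed together, their promoters are shown for a sequence that they are known to share, the Y box, in which the nuclear factor NF-Y reads a CCAAT element. RefSeq promoter sequence (GRCm38.p6) was used for 7 of the 10 genes, and H2-Ab1, Ciita and Cd74 were left out of the search. For the 7 genes, the 120 bases before each start were searched on both strands for the letters TGATTGG. The letters were found in 6 of the 7 genes, 45 to 92 bases before the start, and not in the 2 windows of H2-DMa, against 5.147% of all 32851 such windows. Those 2 windows, chr17:34122712-34122831 and chr17:34125398-34125517, lie inside the span of H2-DMa (chr17:34119541-34139101, plus strand). Other possible starts of H2-DMa were not searched. The 6 windows follow 5′ to 3′ on the strand of the gene, with these letters in capitals, on chr17:34287824-34287943 (H2-Aa, minus strand), chr17:34305747-34305866 (H2-Eb1), chr17:34153071-34153190 (H2-DMb1), chr17:34145129-34145248 (H2-DMb2), chr17:34092259-34092378 (H2-Oa) and chr17:34238785-34238904 (H2-Ob), the last 5 on the plus strand.
H2-Aa: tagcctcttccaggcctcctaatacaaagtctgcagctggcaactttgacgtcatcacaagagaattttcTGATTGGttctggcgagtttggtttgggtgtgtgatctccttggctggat
H2-Eb1: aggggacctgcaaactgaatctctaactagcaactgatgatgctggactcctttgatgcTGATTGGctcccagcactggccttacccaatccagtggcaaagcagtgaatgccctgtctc
H2-DMb1: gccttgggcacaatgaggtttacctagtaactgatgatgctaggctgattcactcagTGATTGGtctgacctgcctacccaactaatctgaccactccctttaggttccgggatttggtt
H2-DMb2: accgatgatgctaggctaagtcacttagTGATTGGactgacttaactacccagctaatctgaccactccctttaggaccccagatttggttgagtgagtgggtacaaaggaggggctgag
H2-Oa: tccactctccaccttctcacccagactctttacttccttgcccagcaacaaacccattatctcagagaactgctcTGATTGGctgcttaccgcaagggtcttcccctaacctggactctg
H2-Ob: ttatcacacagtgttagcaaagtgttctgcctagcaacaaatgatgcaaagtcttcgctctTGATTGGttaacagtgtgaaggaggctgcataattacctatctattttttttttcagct

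In H2-Eb1, H2-DMb1 and H2-DMb2 the letters stand 61, 63 and 92 bases before the start, and in H2-Aa, H2-Oa and H2-Ob 50, 45 and 59 bases. A match of letters is a description of the sequence, and no binding was measured here.

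Il4i1, Il4ra, Socs1 and Socs3 were among the genes with the largest ratios that were not immunoglobulin genes. Il4i1, an L-amino acid oxidase described as an IL-4-induced gene of B cells (chr7:44816387-44840809), had 42 UMIs in 28 DMSO cells and 552 UMIs in 101 DAB cells, a log2 ratio of 3.03 (2.58 to 3.52). Il4ra, the alpha chain of the IL-4 receptor (chr7:125552120-125579474), had 8 and 103 UMIs, in 8 and 65 cells, a log2 ratio of 3.0 (1.97 to 4.25). In the other cells these 2 genes had log2 ratios of -1.26 and -0.27.

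The cytokine feedback inhibitors Socs1 and Socs3 were also higher. Socs1 had 9 UMIs in DMSO and 111 in DAB, giving a log2 ratio of 2.94 (1.97 to 4.11). Socs3 (chr11:117966079-117970047) had 1 UMI in DMSO and 69 UMIs in 38 DAB cells, a log2 ratio of 5.43 with a wide interval (2.90 to 10.75), against -0.75 in the other cells. Of 8 STAT3 target genes compared, 3 were higher (Socs3, Il4ra and the kinase gene Pim1, with 59 and 234 UMIs), beside 14.3% of all genes. None was lower, and the list's median was 0.38. Il21r, the receptor chain for IL-21, had 65 and 194 UMIs (0.89, 0.48 to 1.32). Of the 18 survival and cytokine receptor genes compared, 2 were higher and 3 lower, the last being the interferon receptor genes Ifnar1 and Ifnar2 and the death gene Bbc3. With a marker sum of at least 6, Ifnar1 (-0.67) no longer met the criterion.

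Other genes with large ratios had varied roles. Pltp, a phospholipid transfer protein, had 1 UMI in DMSO and 100 UMIs in 51 DAB cells (5.96, 3.45 to 11.28). Klhdc2, a substrate receptor of a ubiquitin ligase, had 25 UMIs in 16 DMSO cells and 437 UMIs in 103 DAB cells (3.44, 2.86 to 4.09). Their log2 ratios were 0.38 and 0.12 in the other cells, and in the myeloid cells with high MHC class II 1.0 and -0.19. Snx29 (21 and 256 UMIs, 2.92) and the receptor gene Gpr171 (3 and 47 UMIs, 3.29 with an interval of 1.65 to 5.62) were likewise higher. Apoe, the lipid carrier, had 44 and 500 UMIs (2.82, 2.38 to 3.30), in 28 and 73 cells, with 79 UMIs in a single DAB cell, and was at only 7.89 and 2.50 CPM in the other cells.

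Among these genes were also Retnla (1 and 51 UMIs, log2 ratio 4.99) and Lyz2 (6 and 109 UMIs, 3.50), which myeloid cells of the cultures held at far higher levels. In the other cells Retnla was at 373 CPM in DMSO and 1186 in DAB, and Lyz2 at 1589 and 2196 CPM. Of the 109 Lyz2 UMIs in DAB, 55 came from a single cell, and when cells with Itgam UMIs were let in, the log2 ratio of Retnla was -3.60, and Lyz2 (0.17) and S100a9 (0.036) no longer met the criterion. The part that RNA from myeloid cells plays in these values was not tested. Of 9 monocyte and macrophage markers compared, Lyz2, Spp1 and Ms4a6c were higher and Chil3 lower, and of 4 neutrophil markers S100a9 was higher and Lcn2 lower. Of the DMSO UMIs, 30 of the 44 of Chil3 and 17 of the 23 of Lcn2 lay in 1 cell, and without 7 immunoglobulin-rich cells, described below, their log2 ratios were -0.27 (-1.36 to 0.87) and 0.77 (-0.62 to 2.39). Spp1 had 20 and 121 UMIs, 39 of them in a single DAB cell, and was at 2403 and 3198 CPM in the other cells. Among the markers of other lineages, Lck was the single T cell gene compared and was higher (0.53), Ccr7 was lower of 2 dendritic cell genes, Cox6a2, Ly6d and Pacsin1 were higher of 6 plasmacytoid dendritic cell genes, and the single erythroid gene met the criterion in neither direction.

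The early response genes Nr4a1, Nr4a3, Egr1 and Egr3 were lower in DAB B cells. Nr4a1, the orphan nuclear receptor Nur77 (chr15:101254269-101274795), had 273 UMIs in 52 of 115 DMSO cells and 64 UMIs in 19 of 164 DAB cells, or 449 and 65.6 CPM, a log2 ratio of -2.78 (-3.19 to -2.38). Its relative Nr4a3 had 77 and 27 UMIs (-2.19, -2.88 to -1.55). Egr1 had 255 and 143 UMIs (-1.52, -1.82 to -1.22), Egr3 69 and 31 (-1.84, -2.50 to -1.21), and the MAP kinase phosphatase gene Dusp4 79 and 52 (-1.29, -1.82 to -0.76).

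At equal depth 23.5% of DMSO cells and 3.66% of DAB cells had a UMI of Nr4a1. In the other cells Nr4a1 was near 0 in both libraries (3.56 and 3.33 CPM), Nr4a3 was lower as well (-1.07), Egr1 was at -0.45, and Egr3 and Dusp4 had ratios of 0.84 and 0.73. Of the 10 ERK output genes compared, Dusp4, Egr1 and Egr3 were lower and Myc was higher, at 38 and 131 UMIs (1.10, 0.57 to 1.66), and the list's median was -0.02. Myc UMIs lay in 18 DMSO cells and 41 DAB cells, so that a minority of cells carried it in both libraries.

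Activation genes differed in both directions: of 20 compared, 5 were higher and 6 lower, beside 14.3% and 8.58% of all genes, with a median of 0.35. Cd83, a surface marker of activated B cells that stabilises MHC class II, was higher, at 168 UMIs in 59 DMSO cells and 715 UMIs in 151 DAB cells (1.41, 1.16 to 1.66). Bcl6, the germinal centre repressor, had 13 and 49 UMIs (1.23, 0.33 to 2.24). The adhesion receptor gene Cd44 (-1.25) and the death receptor gene Fas (-2.0, with 15 and 6 UMIs) were lower along with the NR4A and EGR genes.

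Of 8 genes of the B cell receptor complex, Cd79a (0.74), Cd79b (0.69) and Ighd (1.44) were higher and Ighm and Igkc lower, with a median of 0.28, and the Cd79 genes were used to choose the cells. Of 14 signalling genes compared, 3 were higher (Vav1, Bank1 and Dapp1) and the kinase gene Prkcb was lower, with a median of 0.03, counts near the shares of all genes. Prkcb missed the criterion with no mitochondrial filter (-0.49) and as a mean over cells (-0.44). The scaffold gene Bank1 had 65 and 282 UMIs (1.43, 1.04 to 1.85). Of 7 inhibitory receptor genes, 3 were higher, beside 14.3% of all genes, and none was lower. The 3 were Cd22 (32 and 148 UMIs, 1.53, 0.97 to 2.13), the Fc receptor gene Fcgr2b (1.0) and Btla (0.85).

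Several genes of mature B cells were higher in DAB, and others were lower. Ighd, which encodes the IgD heavy chain of mature naive B cells, was found in 37 of 115 DMSO cells (32.2%) and 111 of 164 DAB cells (67.7%), or 6.96% and 25% at equal depth, and Ighm UMIs lay in 107 and 161 cells. The egress receptor gene S1pr1 had 4 and 35 UMIs (2.45, 0.96 to 4.40), its activator Klf2 63 and 302 (1.58, 1.18 to 1.99), and Gpr183, which guides B cells to follicle borders, 47 and 148 (0.97, 0.49 to 1.48). Ccr7 and Cxcr4, receptors that draw B cells to lymphoid tissue and marrow, were lower (-0.50 and -0.99), Ccr7 just past the criterion: it missed it with no mitochondrial filter and without members over 0.5% myeloid UMIs (-0.49 in both). Cxcr4 missed it as a mean over cells (-0.35) and without members over 2 times the median UMIs (-0.85). Of 15 mature B cell genes compared, 6 were higher and 2 lower, beside 14.3% and 8.58% of all genes. Their median was 0.35, the same as that of these genes in the other cells.

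The lineage factors Ebf1 (273 and 578 UMIs, 0.40), Pax5 (76 and 143, 0.23) and Bach2 (182 and 413, 0.50 with an interval of 0.24 to 0.76) met the criterion in neither direction, Bach2 falling just short of it. Of 18 lineage factors compared, Pou2af1, Pou2f2, Klf2, Bcl11a and Mef2c were higher, and Spib and Irf4 lower, with a median of 0.27. Of all genes, 14.3% were higher and 8.58% lower. Among 6 genes of early B cell development with enough UMIs, Sox4 (18 and 10 UMIs) and Myb (39 and 9 UMIs, -2.80) were lower and Vpreb3 (39 and 132 UMIs, 1.08) was higher, but as a mean over cells Vpreb3 was at 0.093, and with a marker sum of at least 6 Sox4 (-1.28) no longer met the criterion. Of 8 genes of B1 and marginal zone B cells compared, Cd9, Plac8 and Spn were higher and Bhlhe41 lower. With a marker sum of at least 6, Bhlhe41 (-0.66) no longer met the criterion.

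Immunoglobulin genes took 7.42% of all UMIs of DMSO B cells and 2.92% of those of DAB B cells, but the median cell had 0.722% and 0.830%. The gap came from 7 cells, 5 in DMSO and 2 in DAB, in which immunoglobulin genes took 51.2% to 66.5% of the UMIs. All 7 had UMIs of Jchain, which joins secreted IgM, and no other member had any. All 7 were at 0 for Ms4a1, Pax5 and H2-Aa, and they held 6 to 11 of 14 plasma cell genes. In 6 of them the leading constant gene was Ighm, and in the other, a DMSO cell, it was Ighg2c, with 1002 UMIs.

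Each of these cells was dominated by 1 light chain and 1 heavy chain variable gene. The light chain genes were Igkv4-55, Igkv5-39, Igkv3-2, Igkv3-4 and Igkv6-15 in DMSO and Igkv4-57-1 and Igkv3-4 in DAB, with 944 to 10784 UMIs in a cell. The pair of Igkv3-4 and Ighv1-55 led in 1 DMSO cell (10784 and 1477 UMIs) and in 1 DAB cell (9590 and 1170 UMIs). Of the 20 genes with the largest ratios, 15 were immunoglobulin genes, and several of them rest on 1 such cell, as Igkv4-57-1 does with 6209 of its 6214 UMIs. Others lay in a few DAB cells outside the 7, such as Igkv6-23 (88 UMIs in 7 cells), Igkv6-32 (149 in 4) and Ighv12-3 (109 in 3).

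Several lower values in DAB rested on these cells. With all members, Ighm had a log2 ratio of -1.17, Igkc -1.64 and the protease inhibitor gene Slpi -3.77, and without the 7 cells they were 0.20, -0.01 and 2.94. Of 11 plasma cell genes compared, 4 were lower (Jchain, Irf4, Slamf7 and Creld2) and Ighg1 higher, beside 8.58% and 14.3% of all genes. Their median was -0.81, and -0.25 without the 7 cells. The 24 genes of the unfolded protein response, which plasma cells use to fold antibody, had a median of -0.30, and 0.00 without the 7 cells. With all members, 6 of these genes were lower (Hyou1, Herpud1, Creld2, Dnajc3, Ern1 and Crebrf), beside 8.58% of all genes, and none was higher. Without the 7 cells, Hyou1, Herpud1, Creld2 and Ern1 no longer met the criterion, and neither did Slamf7. Dnajc3 missed it when barcodes with Itgam UMIs were let in (-0.27). Irf4 (-0.49) and Ighg1 (1.10) missed it without members over 2 times the median UMIs. The median of the MHC class II list was 1.27 without the 7 cells and the log2 ratio of Nr4a1 was -2.91.

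Some higher values moved as well without the 7 cells. Bcl11a (0.49), Fcmr (0.47), the IgE receptor gene Fcer2a (0.53), Lck (0.40), Pacsin1 (1.02), Vav1 (0.56) and Xaf1 (1.77) no longer met the criterion, and the log2 ratios of Cebpb (2.91), Zbp1 (3.27), Spn (3.27) and mt-Nd4l (3.46) were larger.

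The remaining 110 DMSO and 162 DAB cells used many variable genes. In DMSO 52 heavy chain and 47 kappa variable genes were seen, and in DAB 66 and 62. In a cell with at least 5 such UMIs the leading gene took a median of 100% of the heavy chain UMIs in both libraries. The most common heavy chain gene was Ighv8-8 in DMSO, in 7 cells, and Ighv1-26 in DAB, in 10 cells of the 149 with heavy chain variable UMIs.

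Light chain class depended on which gene was read. By variable genes, 70 of 91 DMSO cells with at least 5 light chain UMIs (76.9%, interval 66.9% to 85.1%) were kappa, with over 80% of those UMIs from kappa genes, and 17 (18.7%) were lambda, with under 20%. In DAB 114 of 135 cells (84.4%, 77.2% to 90.1%) were kappa and 18 (13.3%) lambda. By constant genes only 8 of 89 DMSO cells and 3 of 136 DAB cells were kappa, and 43 and 76 lay between the limits. Iglc2 UMIs lay in 96 DMSO and 139 DAB cells, more than the cells with lambda variable genes. The kappa shares of the 2 libraries overlap in their intervals.

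The amino acid response, the program of ATF4 that includes aminoacyl-tRNA synthetases, amino acid transporters and serine synthesis enzymes, was of interest because the study asked about dabrafenib and the amino acid sensing kinase GCN2. Of 54 genes, 38 could be compared in B cells, where 4 were higher (Psph, Slc1a5, Cebpb and Lars) and 5 lower (Aldh18a1, Slc7a1, Atf4, Ddit3 and Yars), with a median of -0.16. These counts lie near the shares of all genes, 14.3% higher and 8.58% lower. The same 38 genes had a median of 1.21 in all other cells and 1.24 in the myeloid cells with high MHC class II. This difference between cell types was not tested.

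Asns, the asparagine synthetase gene and a classical ATF4 target, had 26 UMIs in 11 DMSO B cells and 28 UMIs in 15 DAB B cells, a log2 ratio of -0.58 (-1.40 to 0.25), against 2.31 in the other cells. Of these UMIs, 10 and 17 lay outside the 7 immunoglobulin-rich cells, where the log2 ratio was -0.05 (-1.26 to 1.24). Ddit3, which encodes the stress factor CHOP (chr10:127290774-127296288), had 85 and 37 UMIs (-1.88, -2.48 to -1.31), against 0.68. Atf4 itself had 120 and 129 UMIs, or 197 and 132 CPM (-0.58, -0.95 to -0.21), against 0.83. Of the higher genes, Psph of serine synthesis had 5 and 32 UMIs (2.0, 0.62 to 3.71), near its 2.27 in the other cells, and the glutamine transporter gene Slc1a5 had 34 and 96 UMIs (0.81, 0.24 to 1.42), against 1.53.

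These values depended on how the B cells were chosen. When the barcodes with Itgam UMIs were let in, the list's median was 0.35, the log2 ratio of Asns was 0.62 and that of Atf4 0.022, and Aldh18a1 (-0.62), Yars (-0.22) and Cebpb (0.22) also no longer met the criterion. When cells with more than 2 times the median UMIs of their library were left out, the median was -0.35. Slc1a5 (0.61), Lars (0.73) and Slc7a1 (-0.78) then no longer met the criterion. Both list medians lie under the 1.21 of the other cells. The small sums of most genes leave wide intervals, and 29 of the 38 genes met the criterion in neither direction.

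**Figure D3:**
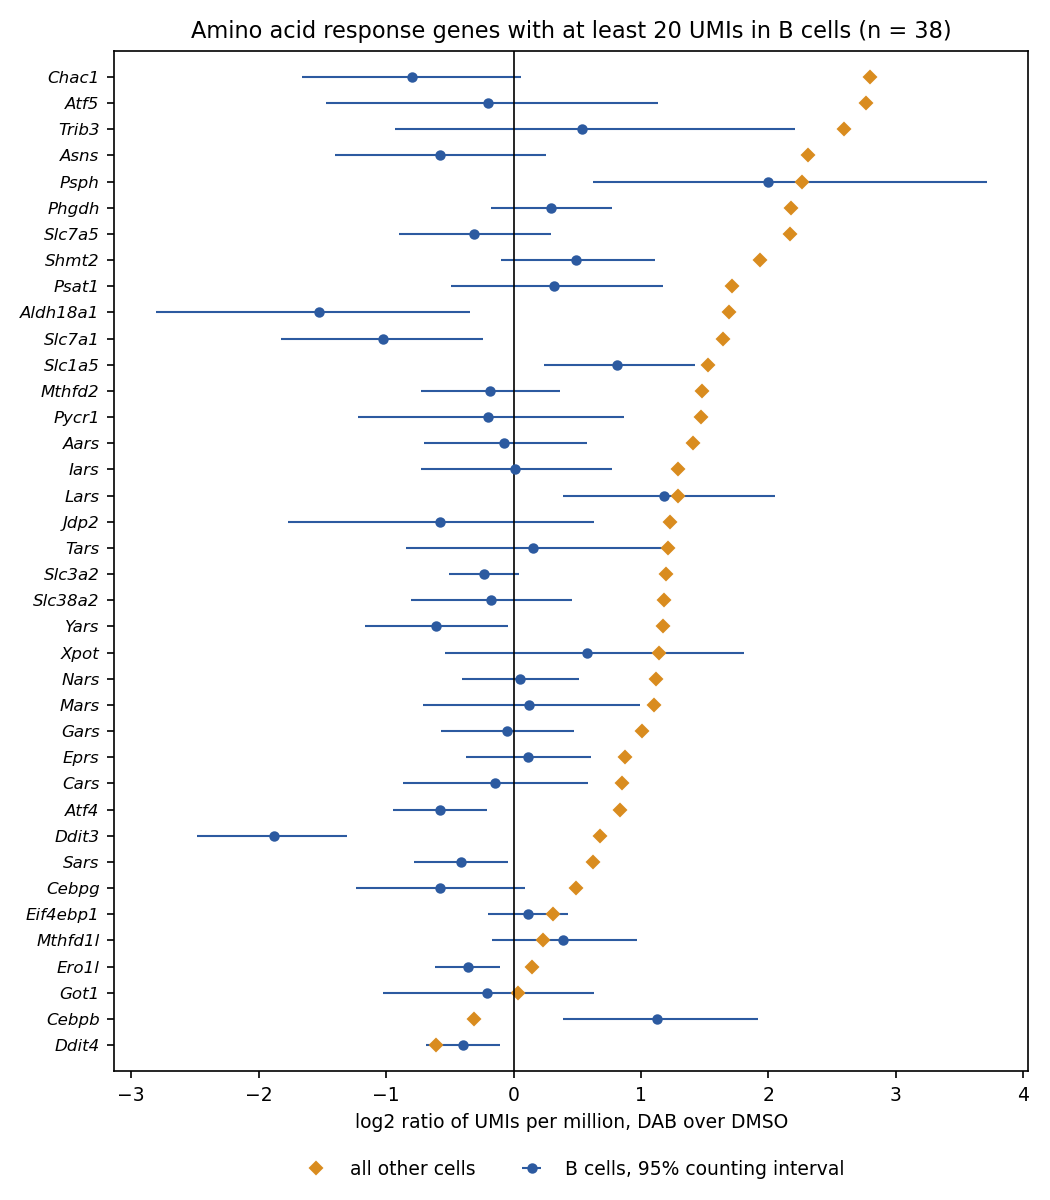
Log2 ratio of CPM, DAB over DMSO, of the 38 amino acid response genes with at least 20 UMIs in B cells, for B cells (circles with 95% counting intervals) and all other cells (diamonds), ordered by the latter. The circles have a median of -0.16 and the diamonds a median of 1.21, with Psph and Lars among the genes where both lie to the right of 0.

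Mitochondrially encoded transcripts were higher in DAB B cells. The mitochondrial share of UMIs had a median of 0.586% in DMSO and 1.26% in DAB cells, and 154 of 164 DAB cells (93.9%) lay above the DMSO median. Of 13 subunit genes of the respiratory chain and ATP synthase, 11 were higher, beside 14.3% of all genes, and none lower, with a median log2 ratio of 1.67. mt-Co3 of cytochrome oxidase was at 543 and 1977 CPM (1.86, 1.70 to 2.04), mt-Atp6 of the ATP synthase at 517 and 1492 CPM (1.53, 1.35 to 1.71), and mt-Nd4l of complex I at 51.0 and 348 CPM (2.77, 2.24 to 3.35).

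mt-Co1 was the most abundant of them and did not meet the criterion, at 3548 and 4710 CPM (0.41, 0.33 to 0.48). In the other cells the 13 genes had a median of 0.09, and their mitochondrial shares had medians of 1.02% and 1.03%. The DMSO B cells therefore lay below the other cells of their library, and the DAB B cells above theirs. The mitochondrial share is also read as a sign of cell or RNA quality, and its part in the other results was not tested. Ribosomal protein genes took a median of 40.8% of UMIs in DMSO and 36.7% in DAB B cells.

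Of 15 proliferation genes compared, 9 were lower in DAB B cells, beside 8.58% of all genes, and none was higher, with a median of -1.19. Without members over 2 times the median UMIs, 5 of these genes could be compared, 1 was lower, Pcna no longer met the criterion and the median was -0.41, and as a mean over cells Pcna (-0.52) and Tpx2 (-0.83) no longer met it. Mki67 had 67 UMIs in 14 DMSO cells and 16 UMIs in 8 DAB cells (-2.75, -3.64 to -1.95), the spindle motor gene Kif11 32 and 2 UMIs (-4.68, -7.79 to -2.71), and the topoisomerase gene Top2a 51 and 36 (-1.19, -1.84 to -0.54). Few cells carried these genes: in DMSO, 5 cells held 59.6% of the list's UMIs, and in DAB 5 cells held 44.7%. Cells with at least 2 such UMIs numbered 30 in DMSO (26.1%) and 54 in DAB (32.9%), a share that goes the other way, at depths that differ.

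Among the genes with the lowest ratios outside the immunoglobulin genes, Tfrc, the transferrin receptor gene, had 44 and 15 UMIs (-2.24, -3.19 to -1.36), the small heat shock gene Hspb1 59 and 11 (-3.11, -4.18 to -2.16), the sterol synthesis gene Msmo1 48 and 17 (-2.18), the condensin gene Smc4 103 and 41 (-2.01) and the chromatin gene Ing2 63 and 23 (-2.14). Of 11 p53 targets compared, 5 were lower, beside 8.58% of all genes, and none higher, with a median of -0.32. Among the lower genes were Bbc3, which encodes the death protein PUMA, at 43 and 15 UMIs (-2.20, -3.16 to -1.33), and the cell cycle inhibitor Cdkn1a, at 36 and 18 (-1.68, but 0.14 when barcodes with Itgam UMIs were let in). The list's median lay between -0.62 and -0.10 over the alternatives. Ccng1 no longer met the criterion with Itgam barcodes let in (-0.50), without members over 2 times the median UMIs (-0.41) or as a mean over cells (-0.27), nor did Trp53inp1 without the immunoglobulin-rich cells (-0.88). Hspb1 was lower in the other cells too (-3.82), from 0.689 CPM, whereas Cdkn1a was at 0.05 there.

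Interferon response genes leaned the other way. Of 14 compared, 6 were higher (Ifi27l2a, Gbp2, Zbp1, Xaf1, Trim30a and Ly6a) and none lower, beside 14.3% and 8.58% of all genes, with a median of 0.93, against -0.09 in the other cells. Ly6a, which encodes Sca-1, had 45 UMIs in 18 DMSO cells and 312 UMIs in 83 DAB cells (2.11, 1.66 to 2.60), and was higher in the other cells too (1.13) and in the MHC class II high myeloid cells (1.88). Ifi27l2a had 202 and 514 UMIs (0.66, 0.43 to 0.91). Several of the others had few UMIs, such as Gbp2 with 3 and 26 and Xaf1 with 3 and 18. Of 17 NF-κB targets, Nfkb1, Birc3 and Cd83 were higher and Rel lower, with a median of 0.20, again near the shares of all genes. Of 16 trafficking genes, 4 were higher and 3 lower, beside 14.3% and 8.58% of all genes, with a median of 0.27.

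A further list held metabolic genes that the study names together with Atf4, which the study gives as a GCN2-responsive gene. Of these, 8 could be compared in B cells, where Cox6a2 was higher, Aldh18a1 and Atf4 were lower, and the median was -0.09. Cox6a2, a subunit of cytochrome oxidase, had 11 and 43 UMIs in 7 and 13 B cells (1.28, 0.30 to 2.39), and was at 7.46 and 108 CPM in the other cells. Without the 7 immunoglobulin-rich cells it had 4 and 37 UMIs and a log2 ratio of 2.40 (0.92 to 4.35), whereas without members over 2 times the median UMIs (1.15) and as a mean over cells (0.78) it no longer met the criterion. Ldha, the lactate dehydrogenase gene, had 862 and 1484 UMIs (0.10, -0.02 to 0.22), and the glucose transporter gene Slc2a1 101 and 134 (-0.27, -0.66 to 0.11). Neither met the criterion in B cells.

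**Figure D4:**
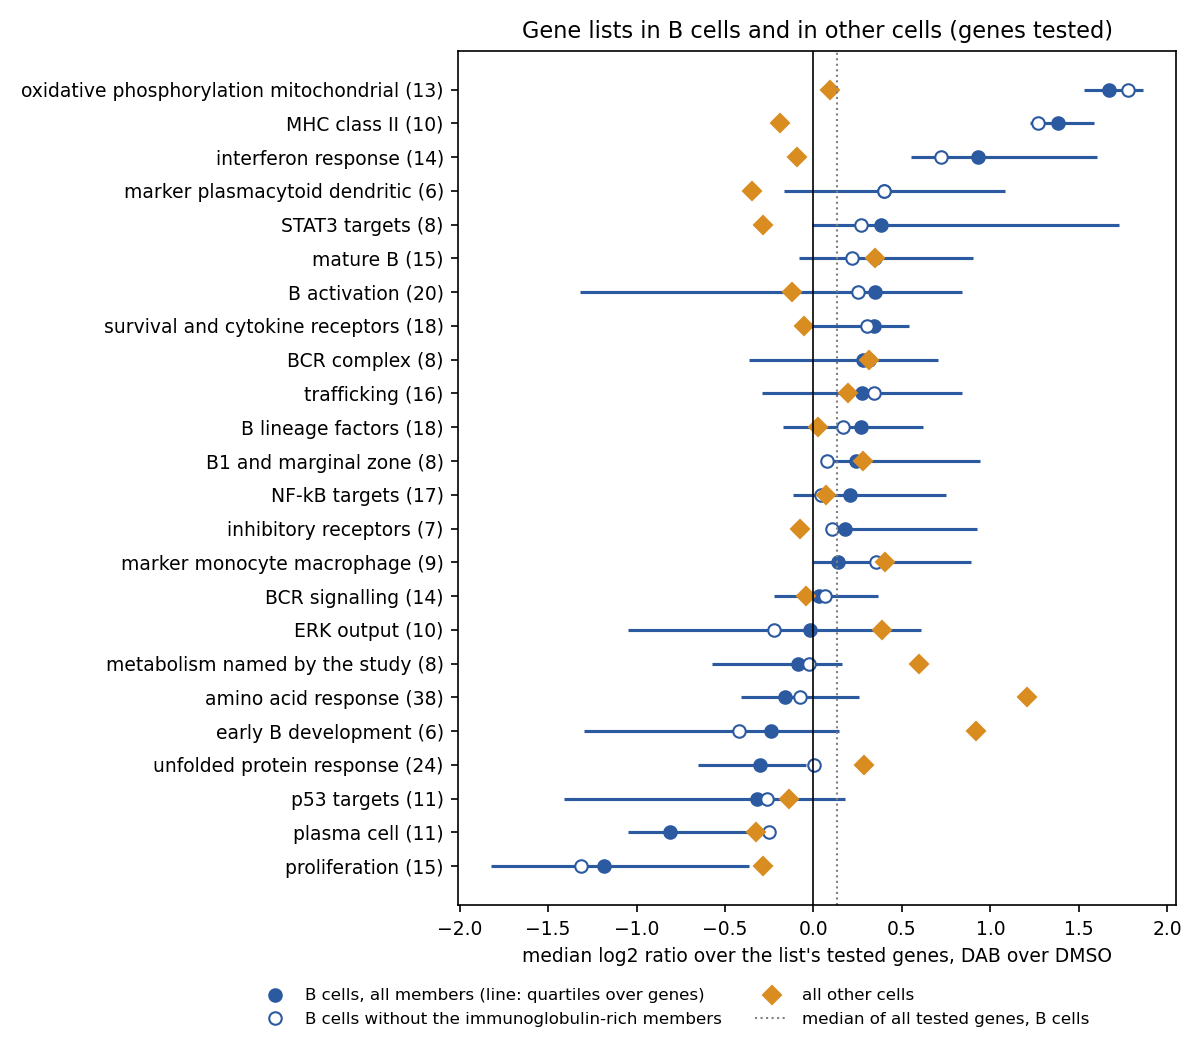
Median log2 ratio, DAB over DMSO, over the compared genes of each list (number in brackets), for all B cells (filled circles, lines from the first to the third quartile over genes), B cells without the 7 immunoglobulin-rich cells (open circles) and all other cells (diamonds). Mitochondrial genes (1.67), MHC class II (1.38) and interferon response genes (0.93) lie furthest right of the dotted median of all genes (0.13) in B cells, and proliferation genes (-1.19) furthest left.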

How the data were processed

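The authors aligned the reads to mm10 in Cell Ranger 7.0.0, and what they deposited are raw UMI counts (the submitters' processing notes also name R 4.1.2 and Seurat 4.3.0). Depth was 9855 barcodes and 106792967 UMIs for DMSO and 11631 and 165506902 for DAB. Of these, 199 and 147 barcodes were under 1000 UMIs, and 35 and 70 others were over 10% mitochondrial. No doublet caller was run, and the Itgam condition and a limit on depth were varied instead. UMIs were summed over cells (Python 3.11.15, numpy 2.4.6, scipy 1.17.1, pandas 2.3.3, matplotlib 3.10.9), with exact Poisson, Clopper-Pearson and conditional binomial 95% intervals. Only the conditional binomial intervals of the ratios were tried on simulated data. Those data were Poisson counts, the case these intervals assume, and leave out the clumping of UMIs in single cells. A gene with no UMI in 1 group is given no ratio in the text, and was ranked by its ratio to a floor of 3 UMIs.

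The members, the 30 gene lists and all rules were chosen with earlier results of these data known. Genes named were those of the member rule and Bach2, and of each list the up to 4 genes with most UMIs. All genes of short lists and any list gene past the criterion were named as well. So were the 10 largest ratios each way among genes with at least 50 UMIs and the 15 leading genes over other cells. The last were metabolic and GCN2-related genes that the study names. The 10 largest ratios each way outside the immunoglobulin genes, named because 15 of the 20 were immunoglobulin genes, the leave-out of immunoglobulin-rich cells (over 15% of UMIs) and the variable gene reading of light chains were added after the data were seen.  One list gene of 457 was not in the reference. One gene is not reported here. Gene positions are those of GENCODE on GRCm38. Alternatives varied the filters, member rule, scaling, cell weighting and UMI minimum.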

Additional observations from a re-analysis of the deposited data

Results flagged for a closer look

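Of the 276 genes named by rule, 25 that are not immunoglobulin genes differed between the libraries in opposite directions in B cells and other cells. They were past the criterion in both, and they drew attention for that reason. Of all 6746 genes compared, 99 were past it in opposite directions. Many of the 276 were named because they were past the criterion in B cells, so the 2 counts cannot be set against each other. Immunoglobulin genes are not among the 25, although Igkc (-1.64 in B cells and 1.02 in the other cells), Ighv1-75 (-6.13 and 2.69) and Igkv6-15 (-5.77 and 1.48) took this form. Without the 7 immunoglobulin-rich cells these 3 were at -0.01, 0.69 and 1.09 in B cells. The difference between the cell types was not tested, and with 1 library per group no test was possible. In each pair of values that follows, the first is the log2 ratio of DAB over DMSO in B cells and the second that in the other cells. Of genes of the amino acid and unfolded protein responses, Ddit3 (-1.88 and 0.68), Aldh18a1 (-1.53 and 1.69), Slc7a1 (-1.03 and 1.64), Herpud1 (-0.72 and 0.75), Yars (-0.61 and 1.17) and Atf4 (-0.58 and 0.83) were lower in B cells and higher in the others, but of these 6 genes Ddit3 alone met the criterion in B cells under all 12 alternatives. When barcodes with Itgam UMIs were let in, Atf4 was at 0.022, and Aldh18a1 (-0.62), Yars (-0.22) and Herpud1 (-0.29) no longer met it, nor did Slc7a1 without members over 2 times the median UMIs (-0.78). Of signalling and early B cell genes, so were Myb (-2.80 and 1.59), Egr3 (-1.84 and 0.84), Sox4 (-1.53 and 0.58) and Dusp4 (-1.29 and 0.73).

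Slpi, Jchain and Gm30211 took the same form, at -3.77 and 1.33, -1.43 and 3.60 and -1.31 and 2.19, and the values of all 3 in B cells rest on the 7 cells rich in immunoglobulin: without them Slpi was at 2.94, Gm30211 at -0.20, and Jchain had no UMI. The genes that were higher in B cells and lower in the others included the antigen presentation genes H2-Oa (1.26 and -0.68) and H2-DMb1 (1.46 and -0.55) and Il4i1 (3.03 and -1.26) and Socs3 (5.43 and -0.75). Receptors and regulators of B cells formed a further group, with Cd22 (1.53 and -0.87), Btla (0.85 and -0.53), Gpr183 (0.97 and -0.68), Bcl6 (1.23 and -1.12) and Pou2f2 (0.62 and -0.63). When barcodes with Itgam UMIs were let in, Btla (0.56), Pou2f2 (0.38) and the gene Pacsin1 (0.74) no longer met the criterion in B cells, nor did Pou2f2 with a marker sum of at least 6 (0.45) or median-of-ratios scaling (0.49). The last were Apoe (2.82 and -1.66), Pacsin1 (1.15 and -0.67) and Ifi27l2a (0.66 and -1.07). In the other cells Jchain, Gm30211, Cd22, Btla, Pacsin1, Dusp4 and Myb were low, so that their ratios there rest on few UMIs per cell.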

How the results depend on the processing

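No paired analysis was possible because each group had 1 library. The counts of genes past the criterion stayed within 1.5 times their main values under all 12 alternatives, between 658 and 1209 higher and 416 and 788 lower. The median of the MHC class II list lay between 1.08 and 1.66 and that of the mitochondrial list between 1.27 and 1.82, but that of proliferation between -1.58 and -0.41, of p53 targets between -0.62 and -0.10, of ERK output between -0.29 and 0.31 and of activation between 0.12 and 0.38. The B cell share moved with the member rule: it was 0.832% in DMSO with a marker sum of at least 6, and 1.75% in DAB with no Itgam condition. A marker sum of at least 6 left out 35 DMSO and 13 DAB members, so the overlap of the 2 shares' intervals holds for the main rule only. With no Itgam condition the amino acid response median was 0.35 and without members over 2 times the median UMIs -0.35, the unfolded protein response median was 0.043, and the log2 ratios were 0.022 for Atf4, 0.14 for Cdkn1a, 0.28 for Lcn2, 0.62 for Asns and -3.60 for Retnla. Without members over 2 times the median UMIs, Igkv3-2 was at 1.09, Igkv3-4 at 0.15, Igkv6-15 at 1.05 and Lcn2 at 0.47. Without the 7 immunoglobulin-rich cells the unfolded protein response median was 0.0027, and Ighm was at 0.20, Ighv1-75 at 0.69, Igkv3-2 at 1.13, Igkv3-4 at 0.19, Igkv6-15 at 1.09, Lcn2 at 0.77 and Slpi at 2.94. As a mean over cells Lcn2 was at 0.57. Scaling by the median of ratios moved the median of all genes to 0.00343. For light chain classes by constant genes, the kappa share was 3.57% in DMSO without the 7 cells, 27.3% in DMSO (22 cells) and 15% in DAB (20 cells) after thinning, and by variable genes kappa was 76.9% and 84.4% and lambda 18.7% and 13.3%. Of the alternative values of 215 single genes, 2354 were counted as the same, 88 no longer met the criterion, 37 newly met it, 14 moved and 16 reversed. The same meant that direction and side of the criterion were kept. For a gene not past the criterion it also covered a changed direction within the main counting interval. Apart from the values that change with the immunoglobulin-rich or Itgam-positive cells, the causes were not tested. Depth limits genes under 20 UMIs, which were not compared.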
